A study of Mus musculus with 12 samples.

Results

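The genes described here are 41 listed genes of glycolysis, gluconeogenesis and hexose transport, out of 53715 genes in the table. They were taken as a list of symbols, each matched to its Ensembl mouse gene, and all 41 were found and passed the filter of more than 10 counts in any sample. They were listed for their roles, with no threshold on the measured values. By role, 4 bring hexose into the cell or into metabolism, 8 code for enzymes of glycolysis only, 11 for enzymes that run in both directions, 8 for enzymes and a transporter of gluconeogenesis only, 4 handle lactate and pyruvate, and 6 are regulators.

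RNA was sequenced from 3 groups of liver cells of C57BL/6JOlaHsd mice, with 4 biological replicates in each. Hepatoblasts were the Dlk1+ cells of livers at E14.5 (an embryonic day), collected on a magnetic column from many pooled livers and lysed at once. Diff. hepatocytes were such Dlk1+ cells kept for 4 days on fibronectin under a medium with serum, an insulin, transferrin and selenium supplement, dexamethasone and Matrigel. Mature hepatocytes came from male mice of 8 to 12 weeks by collagenase perfusion of the liver and were never cultured. Age, sex, culture and its hormones therefore differ together between Diff. and mature hepatocytes and cannot be told apart. The values are reads per gene, given here as CPM (counts scaled to 1000000 per library after TMM normalisation), and libraries held 19581551 to 25216977 counts on genes.

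The labels were checked against defining markers. Dlk1 lay at 2461 to 4199 CPM in hepatoblasts, at 88.3 to 99.1 in Diff. hepatocytes and at 3.17 to 6.42 in the mature cells, whereas Tat, an enzyme of tyrosine breakdown in hepatocytes, lay at 2.03 to 2.62, 520.2 to 849 and 2225 to 2765 CPM. Of the marker lists of other cells, 10 erythroid genes summed to 2726 CPM in hepatoblast replicate 1 against 323 to 539 in the other hepatoblast libraries, and 5 neutrophil genes summed to 411 against 28.6 to 45.2. Replicate 1 of the Diff. hepatocytes had the highest sums of its group for neutrophil (119.7 CPM against 6.04 to 66.0), macrophage (184 against 26.7 to 88.9) and mesenchymal genes (2958 against 1217 to 2002). Both libraries stand apart, so results that rest on them are given with and without them.

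Hexoses enter liver cells through transporters of the SLC2A family and are phosphorylated by hexokinases. Glycolysis splits the sugar phosphate into pyruvate, and gluconeogenesis runs back from pyruvate or lactate to glucose. Most of the steps are shared between both routes, while a few steps far from equilibrium have separate enzymes for each direction. Several steps have isozymes from different genes, and the adult liver is known for isozymes that let it release glucose after a fast, whereas growing and fetal cells are known for isozymes that favour glucose use.

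The bases before the start of 4 genes of gluconeogenesis are shown first, because Pck1, G6pc and Fbp1 were the 3 listed genes called higher in both later groups and lower in Diff. than in mature hepatocytes, and Pck2 went another way. Pck1 and Pck2 code for the cytosolic and the mitochondrial PEP carboxykinase, G6pc for the catalytic subunit of glucose-6-phosphatase and Fbp1 for the liver fructose-1,6-bisphosphatase. The letters come from RefSeq on GRCm38.p6 and run 5′ to 3′ on the strand of the gene up to the first annotated exon base, and capitals mark a match on either strand to 1 of 4 motifs. The cAMP motif was TGACG, one side of a cAMP response element. The HNF1 motif, one side of the binding site of that liver factor, was GTTAAT. The amino acid motif, from the response element to amino acid shortage, was TGATGNAA, and the TATA motif was TATAAA. No matches overlapped in the bases printed.
Pck1, chr2:173152823-173153047, plus strand: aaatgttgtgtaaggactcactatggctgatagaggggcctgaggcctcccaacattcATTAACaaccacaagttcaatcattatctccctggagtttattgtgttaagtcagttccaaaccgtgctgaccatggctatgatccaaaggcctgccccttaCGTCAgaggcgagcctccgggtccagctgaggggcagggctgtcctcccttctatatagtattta
G6pc, chr11:101367466-101367560, plus strand: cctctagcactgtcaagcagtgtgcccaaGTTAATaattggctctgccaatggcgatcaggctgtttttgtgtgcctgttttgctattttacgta
Fbp1, chr13:62888283-62888532, minus strand: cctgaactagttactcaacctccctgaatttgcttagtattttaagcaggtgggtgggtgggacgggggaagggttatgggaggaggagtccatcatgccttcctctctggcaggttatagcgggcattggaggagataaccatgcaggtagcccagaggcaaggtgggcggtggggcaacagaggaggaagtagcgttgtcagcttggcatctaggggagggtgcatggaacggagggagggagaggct
Pck2, chr14:55540016-55540265, plus strand: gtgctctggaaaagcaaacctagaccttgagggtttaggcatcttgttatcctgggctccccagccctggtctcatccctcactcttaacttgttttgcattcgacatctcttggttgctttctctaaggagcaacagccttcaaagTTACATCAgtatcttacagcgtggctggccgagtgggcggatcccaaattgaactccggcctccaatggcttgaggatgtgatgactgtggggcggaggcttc
In the 250 bases before the RefSeq start, Pck1 held the HNF1 and the cAMP motif, Pck2 held the amino acid motif, and Fbp1 held none of the 4. G6pc held the HNF1 motif, which is printed, and the amino acid and TATA motifs, which lie past the printed stretch. Among 32851 promoters of the same length, 17.8% held the cAMP motif, 6.43% the HNF1 motif, 3.45% the amino acid motif and 12.4% the TATA motif. Of the 40 listed genes with an entry, 5 held the HNF1 motif at any of their starts (G6pc, Gckr, Khk, Pck1 and Pfkfb1), 2 held the amino acid motif (G6pc and Pck2), 10 held the cAMP motif and 5 held the TATA motif. These genes have 62 starts. Per start, as for the shares above, the counts were 5 (8.06%) for the HNF1, 2 (3.23%) for the amino acid, 13 (21%) for the cAMP and 5 (8.06%) for the TATA motif. A match is a description of the letters and not a measured binding site.

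A gene was called when the adjusted p of edgeR's quasi-likelihood test was under 0.01 and the absolute log2 fold change over 1. Between Diff. hepatocytes and hepatoblasts, 17 of the 41 genes were called, 12 higher and 5 lower, where 28.9% of all 17779 tested genes were called (14.9% higher and 14% lower). Between mature hepatocytes and hepatoblasts, 26 of 41 were called, 13 higher and 13 lower, where 44.8% of all genes were called (20.1% higher and 24.7% lower). Diff. hepatocytes differed from mature hepatocytes in 20 of 41, 12 higher and 8 lower, where 35.8% of all genes were called (20.2% higher and 15.6% lower). Without replicate 1 of both the hepatoblasts and the Diff. hepatocytes, the counts were 19, 25 and 21 (29.1%, 45.5% and 35.9% of all genes). At an adjusted p under 0.05 with no threshold on the fold change, they were 29, 33 and 32, where 59.7%, 72.4% and 65.1% of all genes passed. These comparisons share libraries with each other. The CPM of the groups did not overlap for 25, 30 and 28 of the 41 genes, where the groups did not overlap for 57.5%, 66% and 61.6% of all genes, so the listed genes were near the background by that measure.

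Of the 41 genes, 30 were called in at least 1 comparison and 11 in none. The median log2 fold change of all tested genes was -0.01, -0.15 and 0.09 in the 3 comparisons with TMM, and -0.34, -1.0003 and 0.62 when the libraries were scaled to their totals instead. With library totals, the split of the called genes into higher and lower was 10 and 8 for Diff. hepatocytes against hepatoblasts, 9 and 20 for mature hepatocytes against hepatoblasts, and 20 and 6 for Diff. against mature hepatocytes, where 31.5%, 55.8% and 40.9% of all genes were called. Calls gained there were 3 in the first comparison (Hk2, Pfkm and G6pc3, lower), 7 in the second (Pfkfb3, Aldoa, Tpi1, Pgk1, Pgam1, Eno3 and G6pc3, lower) and 8 in the third (Pfkfb2, Aldoc, Gapdh, Pgk1, Pgam1, Eno3, Ldha and Ldhb, higher), and 2, 4 and 2 were lost. No gene called with TMM changed its direction under that scaling.

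**Figure D1:**
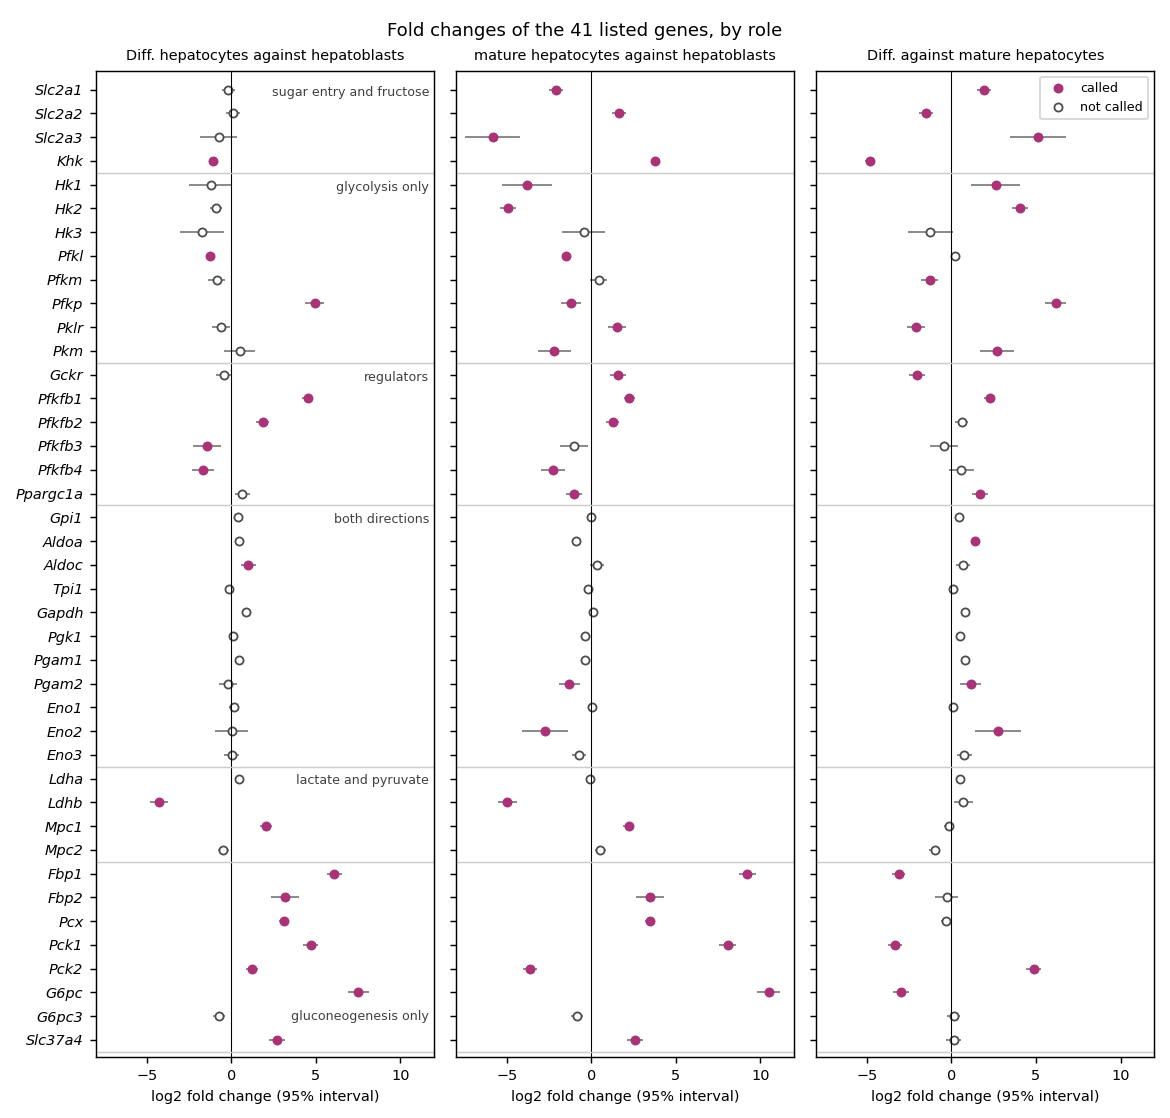
Each row is 1 of the 41 genes, grouped by role, and each panel is 1 comparison. Points are log2 fold changes from edgeR, lines are 95% intervals, and filled points were called. The genes of gluconeogenesis only lie far to the right of 0 in both comparisons against hepatoblasts, except for G6pc3 in both and Pck2 in mature hepatocytes, and most enzymes that run in both directions lie near 0.

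Of the 8 genes of gluconeogenesis only, 7 were higher in Diff. hepatocytes than in hepatoblasts and 1 was not called, and their median log2 fold change was 3.14 beside -0.01 over all genes. Of all genes, 14.9% were called higher in that comparison. In mature hepatocytes 6 were higher than in hepatoblasts, Pck2 was lower, and G6pc3 was not called, where 20.1% of all genes were called higher and 24.7% lower. Between Diff. and mature hepatocytes, Pck1, G6pc and Fbp1 were lower in Diff., Pck2 was higher, and the other 4 were not called. Of all genes, 20.2% were called higher and 15.6% lower there.

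Pyruvate carboxylase, the product of Pcx, makes oxaloacetate from pyruvate in mitochondria and is the first step of gluconeogenesis from lactate. Pcx (chromosome 19, 4510472 to 4621752 on GRCm38, the build of all positions given here) had 72.8, 67.9, 88.1 and 93.8 CPM in hepatoblasts, 639, 803, 644 and 687 in Diff. hepatocytes and 873, 769, 889 and 1001 in the mature cells. The cultured cells had left the hepatoblast range entirely, and their highest library lay within the range of mature hepatocytes. The log2 fold change against hepatoblasts was 3.10 ± 0.14 (SE, adjusted p = 1.53e-09) in Diff. hepatocytes and 3.45 ± 0.14 (1.53e-10) in mature hepatocytes, and Diff. differed from mature hepatocytes by -0.35 ± 0.13, which was not called.

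PEP carboxykinase turns oxaloacetate into phosphoenolpyruvate. For Pck1, the cytosolic enzyme (chromosome 2, 173153048 to 173159273), the libraries held 14.7, 14.1, 19.5 and 18.3 CPM in hepatoblasts, 318, 549.8, 472 and 404 in Diff. hepatocytes and 4107, 4934, 3644 and 5037 in the mature cells. The 3 groups formed 3 separate steps. The step from hepatoblasts to Diff. hepatocytes was 4.71 ± 0.21 in log2 (adjusted p = 1.39e-09), and mature hepatocytes lay above Diff. hepatocytes again (-3.35 ± 0.19 for Diff. against mature hepatocytes, 7.18e-09).

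For Pck2, the mitochondrial enzyme (chromosome 14, 55540266 to 55551242), the order was different. Hepatoblasts had 50.0, 33.2, 43.4 and 34.7 CPM, Diff. hepatocytes 75.5, 111, 83.7 and 105, and mature hepatocytes 2.47, 3.27, 4.03 and 3.10. Diff. hepatocytes were the highest group and mature hepatocytes the lowest, without overlap. The log2 fold change was 1.22 ± 0.16 for Diff. hepatocytes against hepatoblasts (adjusted p = 2.49e-05; 0.88 with library totals, no longer called), -3.64 ± 0.19 for mature hepatocytes against hepatoblasts (1.88e-09) and 4.86 ± 0.20 for Diff. against mature hepatocytes (3.48e-10).

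Within a library, the share of an isozyme among the listed genes of its family was taken from the reads per kb of exons, which needs no scaling between libraries. Pck1 held 40.1, 49.1, 50.6 and 54.5% of the PEP carboxykinase reads per kb in hepatoblasts, 90.6, 91.8, 92.8 and 89.8% in Diff. hepatocytes and 99.95% or more in each mature library. The messages of both enzymes were thus about equal in hepatoblasts, and the cytosolic one prevailed in the other groups. When counts were used without gene length, the mean share in hepatoblasts was 29.5%, and the order of the groups was the same.

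Fructose-1,6-bisphosphatase undoes the phosphofructokinase step. Fbp1 (chromosome 13, 62864753 to 62888282) had 2.23, 1.70, 2.49 and 3.25 CPM in hepatoblasts, 205, 175, 137 and 144 in Diff. hepatocytes and 1308, 1586, 1362 and 1545 in the mature cells. This was again an order of 3 separate groups, with a log2 fold change of 6.10 ± 0.21 (adjusted p = 1.66e-10) in Diff. hepatocytes, 9.23 ± 0.24 (3.43e-12) in mature hepatocytes and -3.13 ± 0.18 (6.4e-09) between them. Fbp2, the muscle isozyme, was scarcely read, with 1 to 5 reads per hepatoblast library, 11 to 20 per Diff. library and 13 to 17 per mature library. It was called higher in both comparisons against hepatoblasts, at 3.17 ± 0.38 and 3.46 ± 0.39, and these values rest on those few reads. Fbp1 held 92.3 to 98.8% of the reads per kb of the family in hepatoblasts and over 99% elsewhere.

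The last step, glucose-6-phosphatase, sets glucose free in the endoplasmic reticulum. The hepatoblast libraries held only 21 to 35 reads of G6pc each (0.677, 0.925, 1.13 and 0.696 CPM). Diff. hepatocytes had 127, 192, 152 and 157 CPM and mature hepatocytes 1639, 1497, 1019 and 840.0. The log2 difference of the adult cells from Diff. hepatocytes was close to that of Pck1 and Fbp1, at -2.99 ± 0.22 for Diff. against mature hepatocytes (adjusted p = 6.75e-08). G6pc3, which codes for the catalytic subunit that many tissues share, had 8.82 to 11.54 CPM in hepatoblasts, 4.82 to 6.96 in Diff. hepatocytes and 4.32 to 6.08 in the mature cells. Its groups did not overlap with hepatoblasts, but its changes of -0.70 ± 0.16 and -0.82 ± 0.16 did not reach the fold change needed for a call. Of the reads per kb of both genes, G6pc held 5.13 to 10.1% in hepatoblasts, 94.4 to 97.3% in Diff. hepatocytes and 99.2 to 99.6% in the mature cells.

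Slc37a4 codes for the transporter that carries glucose 6-phosphate to this phosphatase. It had 29.0, 32.0, 40.7 and 48.2 CPM in hepatoblasts, 212, 251, 262 and 254 in Diff. hepatocytes and 156, 310.1, 180.0 and 251 in the mature cells. The range of the cultured cells lay inside that of the adult cells, and the interval of their log2 difference was -0.32 to 0.57. The rise against hepatoblasts was 2.71 ± 0.22 (adjusted p = 2.57e-07) in Diff. hepatocytes and 2.58 ± 0.22 (1.63e-07) in mature hepatocytes.

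**Figure D2:**
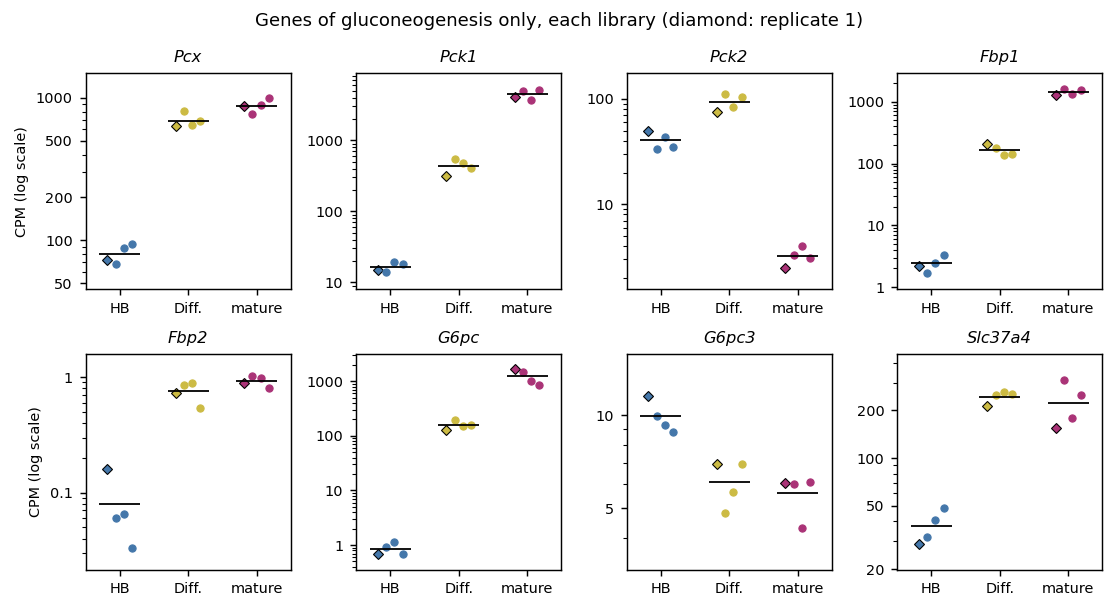
CPM on a log axis of the 8 genes of gluconeogenesis only, 1 point per library and a line at the mean of the 4 libraries of hepatoblasts (HB), Diff. and mature hepatocytes, with replicate 1 as a diamond. Pck1, Fbp1 and G6pc form 3 steps, Pcx and Slc37a4 overlap the adult range in Diff. hepatocytes, and Pck2 is highest in Diff. hepatocytes and lowest in mature hepatocytes.

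Of the 4 genes that bring hexose in, only Khk was called between Diff. hepatocytes and hepatoblasts (28.9% of all genes were). All 4 were called between mature hepatocytes and hepatoblasts (44.8%) and between Diff. and mature hepatocytes (35.8%). Slc2a2 codes for GLUT2, the low-affinity glucose transporter of hepatocytes. It had 104, 163, 168 and 183 CPM in hepatoblasts, 132, 198, 158 and 181 in Diff. hepatocytes and 391, 542, 391 and 597 in the mature cells. Hepatoblasts and Diff. hepatocytes covered the same range, with an interval of -0.30 to 0.53 for their log2 difference, and mature hepatocytes lay 1.64 ± 0.20 above hepatoblasts (adjusted p = 5.76e-06). With library totals that difference was 0.80 and not called.

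Slc2a1 codes for GLUT1, a transporter common in growing and fetal cells. The libraries had 87.7, 80.0, 78.1 and 84.4 CPM in hepatoblasts, 110.0, 52.4, 69.1 and 60.9 in Diff. hepatocytes and 20.5, 21.7, 18.1 and 18.1 in the mature cells. Replicate 1 of the Diff. hepatocytes was the highest library, and all 4 mature libraries were below all others. The log2 fold change of mature hepatocytes against hepatoblasts was -2.08 ± 0.19 (adjusted p = 3.49e-07), and Diff. hepatocytes were higher than mature hepatocytes by 1.90 ± 0.19 (1.26e-06; 1.64 without replicate 1 of the Diff. hepatocytes). Slc2a3, which codes for the high-affinity transporter GLUT3, had 20.9, 8.69, 7.42 and 4.28 CPM in hepatoblasts, 9.64, 8.48, 2.40 and 3.94 in Diff. hepatocytes and 0.343, 0, 0.117 and 0.248 in the mature cells, where 0 to 5 reads were counted and a count of 0 allows up to 3 reads. Mature hepatocytes were lower than both other groups (-5.85 ± 0.76 against hepatoblasts, adjusted p = 1.18e-05). Hepatoblast replicate 1 raised the mean of its group from 6.79 to 10.3 CPM. Mature hepatocytes were at -5.25 ± 0.65 in log2 against the other 3 hepatoblast libraries.

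Among these 3 transporters, Slc2a2 held 39.4, 54.1, 55.6 and 56.4% of the reads per kb in hepatoblasts, 41.3, 68.1, 57.8 and 63.7% in Diff. hepatocytes and 92.01, 93.8, 92.9 and 95.2% in the mature cells. Slc2a1 fell from 42.5 to 54.4% in hepatoblasts to 4.73 to 7.93% in mature hepatocytes. The shares of hepatoblasts and Diff. hepatocytes overlapped for all 3 (exact permutation p = 0.429, 0.4 and 0.543 for Slc2a1, Slc2a2 and Slc2a3). The libraries with the lowest share of Slc2a2 were replicate 1 of each of these groups, the same libraries in which the sums of neutrophil and macrophage markers were highest, and the part of those cells in the shares was not tested. Fewer cells of a type and less RNA per cell cannot be told apart in bulk samples.

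Ketohexokinase, the product of Khk (chromosome 5, 30921431 to 30931248), phosphorylates fructose and is strongly expressed in adult liver. Its CPM were 37.5, 40.5, 47.9 and 46.9 in hepatoblasts, 17.6, 22.3, 20.6 and 21.5 in Diff. hepatocytes and 581, 583, 648 and 539 in the mature cells. Khk was the only listed gene that was called lower in Diff. hepatocytes (-1.08 ± 0.11, adjusted p = 1.95e-06) and higher in mature hepatocytes than in hepatoblasts (3.77 ± 0.12, 1.27e-11). The call in Diff. hepatocytes was lost when the fold change threshold was made part of the test. Diff. against mature hepatocytes differed by -4.84 ± 0.12 (4.71e-12), the largest deficit in the cultured cells among the 41 genes.

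Hexokinases trap glucose in the cell as glucose 6-phosphate. The listed ones are Hk1, the form of most tissues and of blood cells, Hk2, the form of muscle and of growing cells, and Hk3, a form of white blood cells. Hk2 (chromosome 6, 82725025 to 82774454) had 44.1, 57.4, 54.0 and 51.8 CPM in hepatoblasts, 34.4, 25.7, 27.3 and 23.5 in Diff. hepatocytes and 2.19, 1.22, 2.22 and 1.06 in the mature cells. All 3 groups were separate. Against hepatoblasts the log2 fold change was -0.90 ± 0.17 in Diff. hepatocytes, short of a call (-1.02 and called without replicate 1 of the Diff. hepatocytes), and -4.95 ± 0.22 in mature hepatocytes (adjusted p = 3.09e-10).

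Hk1 depended on 1 library. It had 117, 22.1, 15.7 and 11.8 CPM in hepatoblasts, 25.6, 14.46, 15.9 and 15.6 in Diff. hepatocytes and 3.70, 2.12, 3.38 and 2.48 in the mature cells. Replicate 1 was the highest library of its group in both the hepatoblasts and the Diff. hepatocytes, and it was also the highest for the erythroid markers there (2726 CPM against 323 to 539 in hepatoblasts, and 23.9 against 6.09 to 12.2 in Diff. hepatocytes). The part of those cells in the result was not tested. Diff. hepatocytes differed from hepatoblasts by -1.22 ± 0.58 with all libraries and by 0.12 ± 0.24 without hepatoblast replicate 1, neither of them called. The lower level in mature hepatocytes was -3.83 ± 0.68 with that library (adjusted p = 0.000207) and -2.51 ± 0.27 without it (2.41e-06). Diff. hepatocytes were higher than mature hepatocytes by 2.61 ± 0.67 (adjusted p = 0.00393), a call that was lost when any of 4 single libraries was left out (2.39 to 2.69).

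Hk3 was low everywhere, with 11 to 293 reads per library, and was not called with all libraries in the fit used here. DESeq2 (-1.73, adjusted p = 0.00808) and edgeR with the replicate number as a block (-1.61, 0.00384) called it lower in Diff. hepatocytes than in hepatoblasts, and the block also called it lower in Diff. than in mature hepatocytes (-1.46, 0.00775). Hepatoblast replicate 1 had 9.45 CPM and the other hepatoblast libraries 1.76 to 2.62, and without it the log2 fold change of mature hepatocytes against hepatoblasts moved from -0.46 to 0.45. Without replicate 1 of the Diff. hepatocytes, Diff. hepatocytes were called lower than hepatoblasts (-2.37 ± 0.63, adjusted p = 0.00672), beside -1.72 ± 0.60 with all libraries. Within the 3 genes, Hk2 held 31.3% of the reads per kb in hepatoblast replicate 1 and 75.8 to 80.6% in the other hepatoblast libraries, 61.1 to 69.6% in Diff. hepatocytes and 18.8 to 20.8% in the mature cells. In mature hepatocytes Hk3 held 50.2 to 56.9% (a mean of 37.9% when gene length was not used, below 40.0% for Hk1), although its level there (1.74 to 3.77 CPM) was no higher than in the 3 other hepatoblast libraries beyond the overlap of their ranges. The large share thus went with the low levels of Hk1 and Hk2. Macrophage markers summed to 111 to 213 CPM in mature hepatocytes and 76.0 to 311 in hepatoblasts, and their part in the Hk3 share was not tested.

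Gckr codes for a regulatory protein of hepatocytes that restrains glucose phosphorylation when fructose 6-phosphate is plentiful. It had 51.7, 76.5, 83.7 and 99.2 CPM in hepatoblasts, 35.2, 72.3, 57.1 and 66.1 in Diff. hepatocytes and 249.8, 247, 233 and 205 in the mature cells. The cultured cells overlapped hepatoblasts and all adult libraries were higher. The log2 fold change was 1.59 ± 0.22 for mature hepatocytes against hepatoblasts (adjusted p = 1.82e-05; 0.76 with library totals, not called) and -2.02 ± 0.22 for Diff. against mature hepatocytes (3.11e-06).

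Phosphofructokinase commits fructose 6-phosphate to glycolysis and has a liver (Pfkl), a muscle (Pfkm) and a platelet (Pfkp) isozyme. Pfkp (chromosome 13, 6579768 to 6648777) had 8.64, 4.27, 4.02 and 4.44 CPM in hepatoblasts, 150.3, 199.6, 153 and 153 in Diff. hepatocytes and 3.29, 1.80, 2.33 and 1.80 in the mature cells. Each Diff. library was far above every library of the other groups. The log2 fold change of Diff. hepatocytes was 4.94 ± 0.25 against hepatoblasts (adjusted p = 5.15e-09; 5.28 without hepatoblast replicate 1) and 6.15 ± 0.28 against mature hepatocytes (1.05e-09). Platelet and megakaryocyte markers summed to 22.3 to 66.4 CPM in Diff. hepatocytes and 14.7 to 59.6 in hepatoblasts, so these ranges overlapped where those of Pfkp did not. Mesenchymal markers summed to 1217 to 2958 CPM in Diff. hepatocytes, 679 to 1323 in hepatoblasts and 51.9 to 74.1 in mature hepatocytes. The 6 bile duct markers summed to 92.7 to 232 CPM in Diff. hepatocytes, 26.7 to 35.7 in hepatoblasts and 37.3 to 65.9 in the mature cells, so that they too were highest in culture without overlap. The part of either kind of cell in the result was not tested. The lower level of Pfkp in mature hepatocytes than in hepatoblasts (-1.22 ± 0.28, adjusted p = 0.00133) was -0.89 and not called without hepatoblast replicate 1.

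Pfkl, the isozyme that prevails in liver, moved the other way. It had 174, 168, 182 and 192 CPM in hepatoblasts, 76.1, 85.1, 64.4 and 72.5 in Diff. hepatocytes and 62.9, 57.5, 67.4 and 66.3 in the mature cells. Diff. and mature hepatocytes overlapped and were both below hepatoblasts, at log2 fold changes of -1.26 ± 0.09 (adjusted p = 1.32e-07) and -1.49 ± 0.10 (1.06e-08). Pfkm had 41.6, 20.2, 19.8 and 18.8 CPM in hepatoblasts, 11.5, 16.1, 14.4 and 13.5 in Diff. hepatocytes and 30.2, 30.4, 36.5 and 38.7 in the mature cells, and was called only between Diff. and mature hepatocytes (-1.29 ± 0.23, adjusted p = 0.000281; -0.76 with library totals, not called).

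The makeup of the family therefore differed in each group. Pfkl held 66.6 to 82.9% of the reads per kb in hepatoblasts, 38.0 to 43.8% in Diff. hepatocytes and 45.8 to 50.4% in the mature cells. Pfkp held 43.1, 45.9, 45.0 and 43.3% in Diff. hepatocytes, whereas the other libraries had 0.620 to 1.65%. Pfkm held 48.3 to 53.5% in mature hepatocytes, about as much as Pfkl there, and 13.2 to 31.8% elsewhere. Without gene length, the mean shares in mature hepatocytes were 63.7% for Pfkl and 33.9% for Pfkm, and Pfkp held 64.9% in Diff. hepatocytes. With the length of the principal transcript, the mean shares in mature hepatocytes were 58.0% for Pfkl and 40.0% for Pfkm. Of the stretches of 75 bases in the transcripts of Pfkm, 8.13% were shared with another gene, and 4.87% of those of Pfkp.

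**Figure D3:**
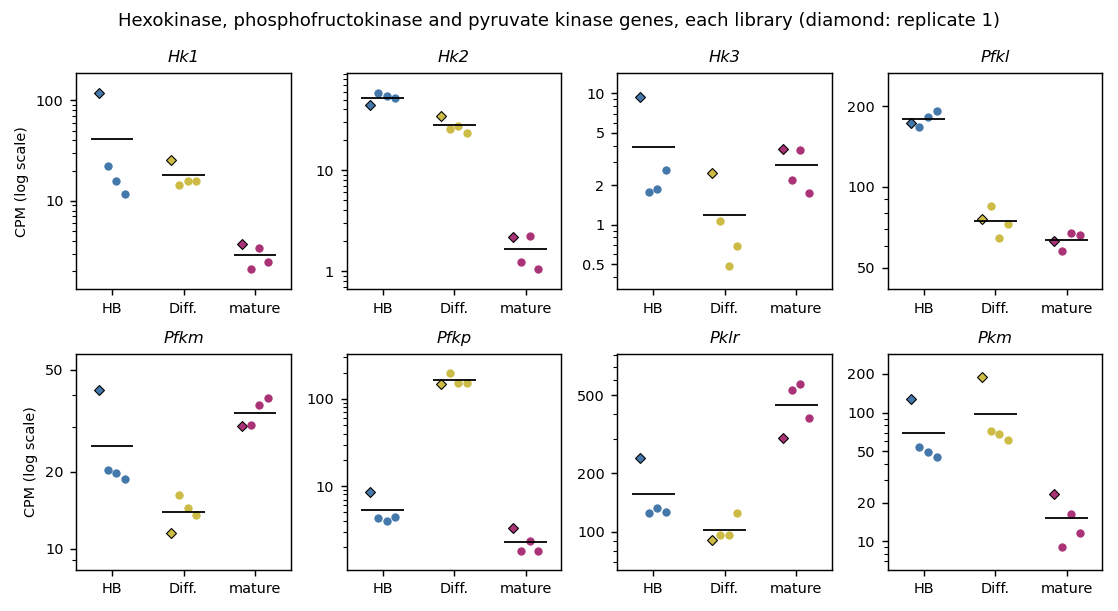
CPM on a log axis of the hexokinase, phosphofructokinase and pyruvate kinase genes, 1 point per library and a line at the mean of each group (HB, hepatoblasts), with replicate 1 as a diamond. Pfkp stands out in Diff. hepatocytes at 150.3 to 199.6 CPM, Hk2 falls to 1.06 to 2.22 CPM in mature hepatocytes, and hepatoblast replicate 1 lies above its group for Hk1, Hk3, Pfkm, Pklr and Pkm.

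The bifunctional enzymes PFK-2/FBPase-2 make and remove fructose 2,6-bisphosphate, which activates phosphofructokinase and inhibits fructose-1,6-bisphosphatase. Pfkfb1 is the liver form, whose balance is set by glucagon. Pfkfb1 (chromosome X, 150588229 to 150643878) had 6.09, 6.81, 7.58 and 7.69 CPM in hepatoblasts, 135, 164, 179 and 164 in Diff. hepatocytes and 34.9, 42.4, 30.5 and 26.7 in the mature cells. It was the only listed gene called higher in Diff. hepatocytes than in both other groups and also higher in mature hepatocytes than in hepatoblasts, with log2 fold changes of 4.51 ± 0.16 (adjusted p = 1.73e-10) against hepatoblasts and 2.25 ± 0.14 (1.67e-08) against mature hepatocytes. The level in culture thus exceeded the adult level.

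Pfkfb3 is the form of growing and hypoxic cells, with a strong kinase activity. It had 51.2, 94.1, 86.3 and 81.7 CPM in hepatoblasts, 38.8, 28.0, 22.1 and 26.5 in Diff. hepatocytes and 9.67, 56.7, 39.2 and 50.6 in the mature cells. Replicate 1 of the mature hepatocytes was well below its group. The fall in Diff. hepatocytes was -1.44 ± 0.39 (adjusted p = 0.00605), a call that was lost when any of 6 single libraries was left out (-1.33 to -1.44), and mature hepatocytes were not called. Pfkfb4 had 3.79 to 5.08 CPM in hepatoblasts, 1.02 to 2.08 in Diff. hepatocytes and 0.435 to 1.51 in the mature cells, called lower in both (-1.67 ± 0.31 and -2.25 ± 0.33). Pfkfb2, a form of heart and other tissues, had 5.67 to 8.48 CPM in hepatoblasts and was higher in Diff. hepatocytes (18.5 to 27.2; 1.86 ± 0.18) and in mature hepatocytes (13.7 to 20.99; 1.26 ± 0.18, and 0.40 with library totals, not called).

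Within this family, Pfkfb3 held 65.7, 77.6, 76.8 and 74.4% of the reads per kb in hepatoblasts and Pfkfb1 10.6 to 14.7%. In Diff. hepatocytes Pfkfb1 held 80.5, 84.2, 87.0 and 84.5% and Pfkfb3 5.72 to 12.3%. In mature hepatocytes Pfkfb1 held 71.4, 49.9, 51.1 and 42.6% and Pfkfb3 10.5, 35.5, 34.9 and 42.9%. Pfkfb1 thus prevailed in every Diff. library, whereas in mature hepatocytes replicate 1 stood apart and replicate 4 had about equal shares of both. Without gene length the mean shares in mature hepatocytes were 39.5% for Pfkfb1 and 40.9% for Pfkfb3.

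Of the 11 genes of enzymes that run in both directions, 1 was called in Diff. hepatocytes against hepatoblasts (28.9% of all genes were), 2 in mature hepatocytes against hepatoblasts (44.8%) and 3 between Diff. and mature hepatocytes (35.8%). With library totals, 7 and 8 were called in the latter comparisons. Gpi1, Tpi1, Gapdh, Pgk1, Pgam1, Eno1 and Eno3 were called in none with TMM. Gapdh, the glyceraldehyde 3-phosphate dehydrogenase that is widely used as a reference gene, had 375, 432, 473 and 463 CPM in hepatoblasts, 733, 846, 838 and 772 in Diff. hepatocytes and 445, 445, 515 and 445 in the mature cells. Although not called, Diff. hepatocytes lay above both other groups without overlap, by 0.87 ± 0.10 against hepatoblasts (adjusted p = 6.85e-06) and 0.79 ± 0.10 against mature hepatocytes (1.35e-05; 1.31 and called with library totals). Of its transcript sequences, 22.6% were shared with other genes, 121 in all.

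Tpi1, the triose phosphate isomerase, had 363 to 487 CPM over all 12 libraries, and its groups overlapped in all comparisons. Eno1, the enolase of most tissues, had 236 to 358 CPM, and its groups overlapped as well. Their log2 differences were within -0.22 to 0.15, although library totals put mature hepatocytes at -1.07 against hepatoblasts for Tpi1, which was then called, and at -0.80 for Eno1. Gpi1, the glucose 6-phosphate isomerase, was at 172 to 197 CPM in hepatoblasts, 219.7 to 273 in Diff. hepatocytes and 155 to 198 in the mature cells. Pgk1 and Pgam1 were higher in Diff. than in mature hepatocytes by 0.51 ± 0.11 and 0.80 ± 0.10, short of a call (1.04 and 1.33 with library totals, both called). Library totals also called both lower in mature hepatocytes than in hepatoblasts (-1.23 and -1.21). Of their transcript sequences, 52.8% and 34.9% were shared with other genes. How reads from such stretches were counted is not given in the sources used here, so the levels of both genes are uncertain.

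Aldolase cleaves fructose 1,6-bisphosphate. Aldoa, the form of muscle and most growing cells, had 231, 225, 225 and 223 CPM in hepatoblasts, 314, 331, 306 and 292 in Diff. hepatocytes and 105, 127, 112 and 127 in the mature cells. Each group was apart from the others, with 1.40 ± 0.08 between Diff. and mature hepatocytes (adjusted p = 1.22e-08) and -0.94 ± 0.08 between mature hepatocytes and hepatoblasts, just short of a call. The latter was called with library totals (-1.79), without the 50 most abundant genes (-1.61) and with the filter of at least 10 counts in every sample (-1.06). Aldoc had 14.0 to 25.3 CPM in hepatoblasts and 29.9 to 48.3 in Diff. hepatocytes, called higher there at 1.02 ± 0.20 (adjusted p = 0.000702; 0.71 with library totals, and 0.88 to 0.98 when any of 4 single libraries was left out, none of them called). The share of Aldoa among these 2 genes was 90.8 to 94.9% in hepatoblasts, 88.5 to 92.2% in Diff. hepatocytes and 83.0 to 87.3% in the mature cells.

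Muscle and nerve isozymes of the lower steps were near the limit of the reads. Eno2, the neuronal enolase, had 12 to 30 reads in each hepatoblast and Diff. library and 4, 0, 3 and 0 reads in mature hepatocytes, where it was called lower (-2.74 ± 0.62 against hepatoblasts). Pgam2, the muscle mutase, had 15 to 41 reads in hepatoblasts and Diff. hepatocytes and 5 to 9 in mature hepatocytes (-1.30 ± 0.28 against hepatoblasts, and 1.13 ± 0.29 for Diff. against mature hepatocytes, a call lost without any of 4 single libraries at 0.97 to 1.11). Eno3, the muscle enolase, had 5.90 to 8.99 CPM in hepatoblasts, 6.06 to 10.7 in Diff. hepatocytes and 3.98 to 4.90 in the mature cells. Eno1 held 90.4 to 95.9% of the enolase reads per kb in every library, and Pgam1 89.0 to 97.0% of the mutase reads, so the main isozyme of these steps was the same throughout.

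Pyruvate kinase ends glycolysis, with Pklr coding for the forms of liver and red cells and Pkm for those of muscle and growing cells. Pklr (chromosome 3, 89136142 to 89146784) had 240.0, 125, 132 and 126 CPM in hepatoblasts, 91.1, 95.9, 96.7 and 126 in Diff. hepatocytes and 301, 532, 570.2 and 382 in the mature cells. Hepatoblast replicate 1, the library with the highest erythroid sum, was far above the other hepatoblast libraries; the counts per gene do not separate the liver start from the red cell start. Mature hepatocytes were above hepatoblasts by 1.52 ± 0.24 (adjusted p = 7.56e-05) with all libraries and by 1.80 ± 0.20 without that one, and by 0.66 with library totals, which was not called. Diff. hepatocytes were below mature hepatocytes, at a log2 fold change of -2.13 ± 0.25 (5.72e-06). An antisense gene, Hcn3, overlapped 22.0% of the exons of Pklr.

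Pkm (chromosome 9, 59656368 to 59679375) had 127, 54.5, 49.3 and 45.3 CPM in hepatoblasts, 189, 71.8, 67.8 and 60.8 in Diff. hepatocytes and 23.4, 9.11, 16.3 and 11.5 in the mature cells. In each group replicate 1 was the highest library. The log2 fold change was -2.20 ± 0.45 for mature hepatocytes against hepatoblasts (adjusted p = 0.000631) and 2.69 ± 0.46 for Diff. against mature hepatocytes (0.000171), and without replicate 1 of both other groups these were -1.73 ± 0.23 and 2.16 ± 0.23. Neutrophil markers summed to 411 and 119.7 CPM in the 2 high libraries and to at most 1.03 in mature hepatocytes, and their part in the result was not tested. Pklr held 74.4, 78.0, 80.5 and 81.1% of the reads per kb in hepatoblasts, 42.7, 67.4, 68.8 and 76.1% in Diff. hepatocytes and 95.2, 98.9, 98.2 and 98.1% in the mature cells. The share in culture was thus no closer to the adult share than that of hepatoblasts (exact permutation p = 0.0571 between Diff. hepatocytes and hepatoblasts).

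Lactate dehydrogenase links pyruvate and lactate. Ldhb (chromosome 6, 142490249 to 142507957), whose subunit prevails in heart, had 31.0, 55.5, 52.3 and 45.8 CPM in hepatoblasts, 2.08, 2.93, 1.91 and 2.61 in Diff. hepatocytes and 0.823, 1.41, 1.98 and 1.55 in the mature cells. The drop was nearly complete in culture, at -4.27 ± 0.24 (adjusted p = 9.51e-09), beside -4.98 ± 0.26 (1.31e-09) in mature hepatocytes, and Diff. and mature hepatocytes overlapped. Ldha, whose subunit prevails in muscle and liver, had 775 to 1034 CPM in hepatoblasts, 1203 to 1339.9 in Diff. hepatocytes and 812 to 982 in the mature cells and was not called. Its share of the reads per kb rose from 88.7 to 92.2% in hepatoblasts to 99.5 to 99.8% in both other groups.

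The mitochondrial pyruvate carrier is made of the products of Mpc1 and Mpc2. Mpc1 had 4.03, 4.51, 5.54 and 5.67 CPM in hepatoblasts, 17.9, 21.4, 20.8 and 21.7 in Diff. hepatocytes and 21.6, 21.8, 18.4 and 28.8 in the mature cells. It rose by 2.05 ± 0.15 (adjusted p = 1.33e-07) and 2.20 ± 0.16 (2.72e-08) against hepatoblasts, and Diff. and mature hepatocytes overlapped. Mpc2 had 90.9 to 145 CPM in hepatoblasts, 78.6 to 99.0 in Diff. hepatocytes and 158 to 215 in the mature cells and was not called, with -0.99 ± 0.15 between Diff. and mature hepatocytes, a difference that was called when any of 5 single libraries was left out (-1.003 to -1.05). Mpc1 was therefore the less abundant message of the pair in all libraries, with 11.4 to 13.5% of their reads per kb in hepatoblasts, 43.2 to 47.4% in Diff. hepatocytes and 28.1 to 32.8% in the mature cells. An antisense gene overlapped 23.1% of the exons of Mpc1.

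Ppargc1a codes for a coactivator that drives gluconeogenic genes in fasted liver. It had 14.3, 23.9, 23.5 and 27.3 CPM in hepatoblasts, 26.5, 42.6, 35.1 and 36.4 in Diff. hepatocytes and 7.47, 9.75, 13.9 and 12.5 in the mature cells. Mature hepatocytes were the lowest group, at -1.02 ± 0.22 in log2 against hepatoblasts (adjusted p = 0.00107), a call lost when any of 4 single libraries was left out (-0.89 to -0.99) and when the threshold was part of the test. Diff. hepatocytes were higher than mature hepatocytes by 1.68 ± 0.23 (2.26e-05). The order of its levels was thus different from that of Pck1, G6pc and Fbp1.

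Across the 13 families, 24 shares were compared between the groups, which made 72 comparisons. In 50 of them the libraries of both groups did not overlap, the strongest outcome that 4 libraries against 4 allow (two-sided exact permutation p = 0.0286, adjusted p = 0.0411 over the 72). Lack of overlap was common in these data, since the CPM of 57.5%, 66% and 61.6% of all genes did not overlap in the 3 comparisons. The shares within a family depend on each other and the comparisons share libraries, so the 50 are not separate results. Without replicate 1 of both the hepatoblasts and the Diff. hepatocytes, 60 comparisons did not overlap, but leaving out libraries can only keep or raise this count. In 3 families the same isozyme had the largest mean share in Diff. and mature hepatocytes, and another one had it in hepatoblasts. These were glucose-6-phosphatase (G6pc3 to G6pc), PFK-2/FBPase-2 (Pfkfb3 to Pfkfb1) and PEP carboxykinase, where Pck1 and Pck2 were close to equal in hepatoblasts. For PFK-2/FBPase-2 in mature hepatocytes this did not hold without gene length, where Pfkfb3 led. Among the listed genes, the leading hexokinase and phosphofructokinase isozymes of mature hepatocytes differed from those of hepatoblasts. They were Hk3 in place of Hk2 and Pfkm slightly ahead of Pfkl, but without gene length Hk1 and Pfkl led in mature hepatocytes. With the length of the principal transcript Pfkl led there as well (58.0%, and 40.0% for Pfkm), whereas Hk3 kept the lead (45.0%, and 39.7% for Hk1). Pfkp led in Diff. hepatocytes. The hexokinase shares left out Hkdc1, which was not a listed gene. Its means were 75.0, 39.4 and 0.203 CPM in hepatoblasts, Diff. and mature hepatocytes, beside 51.8, 27.7 and 1.67 CPM for Hk2. In the other 8 families, among them aldolase, enolase, pyruvate kinase and lactate dehydrogenase, the listed isozyme with the largest mean share was the same in the 3 groups. The exception was that with the length of the principal transcript Pklr held 49.9% in Diff. hepatocytes and Pkm led there. The listed aldolases were Aldoa and Aldoc only, so a switch to or from an aldolase gene outside the list could not be seen.

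**Figure D4:**
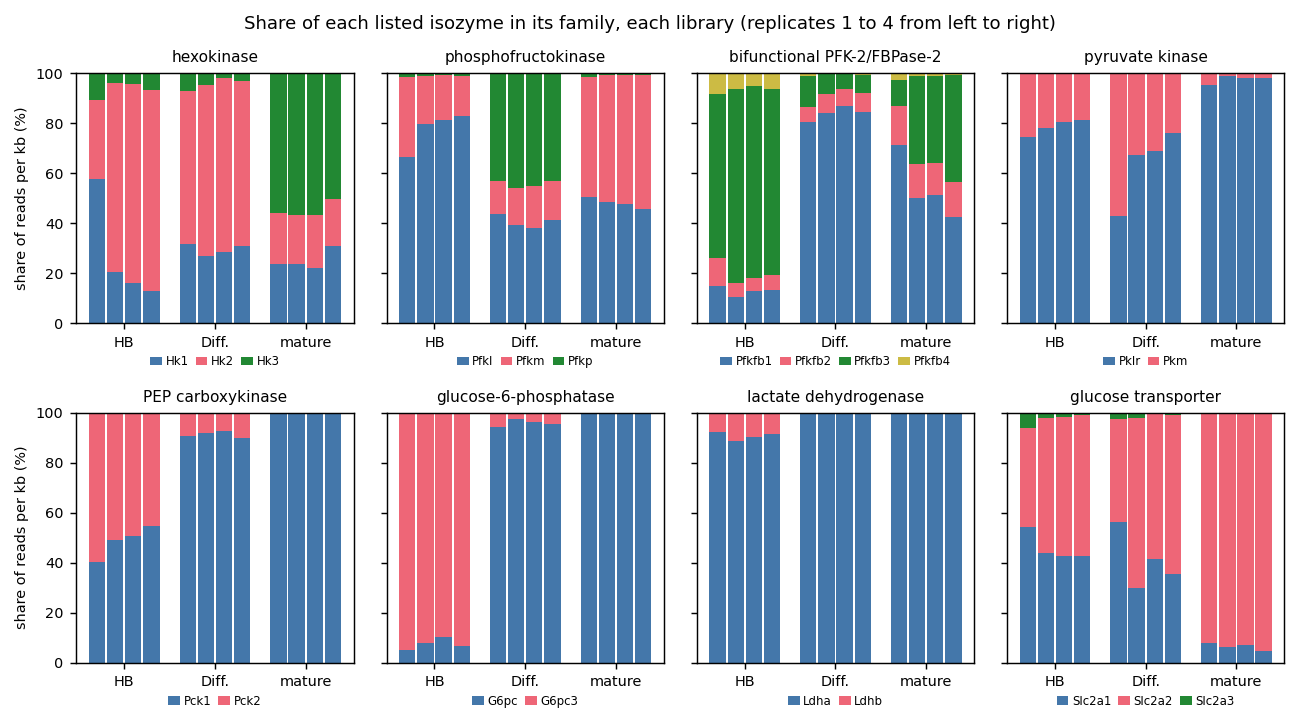
Stacked bars give the share of each listed isozyme in its family as a percent of the reads per kb, 1 bar per library, with replicates 1 to 4 from left to right in hepatoblasts (HB), Diff. and mature hepatocytes. Pfkp takes 43.1 to 45.9% of its family only in Diff. hepatocytes, Pfkfb1 holds most of its family in Diff. hepatocytes and 42.6 to 71.4% in mature hepatocytes, and the first hepatoblast bar differs from the others for the hexokinases.

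Per kb of exons, the most abundant of the listed messages were Ldha in hepatoblasts and in Diff. hepatocytes (281 and 385 CPM per kb) and Pck1 in mature hepatocytes (1292 CPM per kb). Fbp1, G6pc, Khk and Ldha followed Pck1 in mature hepatocytes, at 852, 517, 327 and 270.0 CPM per kb. In hepatoblasts the same 4 genes Pck1, Fbp1, G6pc and Khk were at 4.86, 1.42, 0.355 and 24.1 CPM per kb. By mean CPM, 17 of the 41 genes were highest in Diff. hepatocytes, 12 in hepatoblasts and 12 in mature hepatocytes.

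A further 7 lists of genes around these routes were counted in the same fit. Between Diff. hepatocytes and hepatoblasts, 14.9% of all tested genes were called higher and 14% lower. Between mature hepatocytes and hepatoblasts, 20.1% were called higher and 24.7% lower. Of 12 genes of pyruvate dehydrogenase and its kinases and phosphatases, 2 were higher and 1 lower in Diff. hepatocytes than in hepatoblasts, and 6 were higher and 2 lower in mature hepatocytes. Their median log2 fold changes were 0.37 and 1.04. Pdk2 and Pdk4 code for kinases that switch pyruvate dehydrogenase off. Pdk2 had a mean of 10.7 ± 1.17 CPM (SD, n = 4) in hepatoblasts, 56.3 ± 5.66 in Diff. hepatocytes and 114 ± 18.0 in the mature cells, called higher in both. Pdk4 had 17.2 ± 3.86, 114 ± 10.5 and 12.8 ± 9.77 and was called higher in Diff. hepatocytes than in each other group (2.73 ± 0.42 and 3.16 ± 0.44). Of 12 genes of carbon shuttles and transaminases, 6 were higher and 1 lower in Diff. hepatocytes, and 8 were higher and 4 not called in mature hepatocytes. Gpt, the alanine aminotransferase that feeds alanine into gluconeogenesis, rose from a mean of 6.16 CPM to 32.0 and 465.

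Among the 4 lactate transport genes, Slc16a3, the exporter of glycolytic cells, fell from a mean of 27.5 CPM in hepatoblasts to 3.13 in Diff. hepatocytes (-3.13 ± 0.32) and 0.810 in mature hepatocytes (-5.08 ± 0.38). Slc16a7 rose to 115 CPM in Diff. hepatocytes from 51.4 (1.16 ± 0.25). Of 7 genes of the pentose phosphate pathway, 2 were lower and 5 not called in Diff. hepatocytes, and 3 were lower and 4 not called in mature hepatocytes. Of all genes, 28.9% and 44.8% were called in either direction, so these counts were near the background. G6pdx, the first enzyme of the pathway, was among the lower ones in both (34.4, 14.0 and 5.97 CPM). The list of other hexose enzymes and transporters held 24 genes, of which 22 were tested, with 6 higher and 4 lower in Diff. hepatocytes and 9 higher and 4 lower in mature hepatocytes. In it Hkdc1, a further hexokinase domain gene, had 75.0, 39.4 and 0.203 CPM (-8.48 ± 0.34 in mature hepatocytes against hepatoblasts), and Sord, the sorbitol dehydrogenase of the polyol route, was lower in Diff. than in mature hepatocytes (-2.98 ± 0.22).

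Of the 16 regulators, 13 were higher and 3 not called in mature hepatocytes against hepatoblasts, where 20.1% of all genes were called higher. In Diff. hepatocytes 6 were higher and 1 lower, where 14.9% of all genes were called higher and 14% lower. The lower one was Mlxipl, which codes for the carbohydrate response factor ChREBP, with means of 112, 47.2 and 424 CPM in hepatoblasts, Diff. and mature hepatocytes (-1.25 ± 0.23 in Diff. hepatocytes and -3.17 ± 0.25 between Diff. and mature hepatocytes). Klf15, a factor that acts on gluconeogenic genes, was at 27.2, 123 and 192 CPM, and Gcgr, the glucagon receptor, at 55.2, 86.6 and 391 CPM. Of 11 hypoxia targets, 5 were higher and 6 not called in Diff. hepatocytes against hepatoblasts, led by Egln3 (1.44 to 40.6 CPM, 4.82 ± 0.25) and Ddit4 (16.0 to 250.2 CPM, 3.97 ± 0.33). In mature hepatocytes 4 of the 11 were higher and 3 lower than in hepatoblasts. The medians of these lists stand beside medians of all genes of -0.01 in Diff. hepatocytes and -0.15 in mature hepatocytes, at 0.64 and 1.73 for the regulators and 0.61 and 0.51 for the hypoxia targets.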

How the data were processed

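Poly(A) RNA of 12 samples was sequenced as single reads of 75 bases. The authors aligned the reads with STAR 2.5.2b to GRCm38, assessed quality with FastQC 0.11.2 and duplication with Picard 2.10.2, and deposited whole-number counts per Ensembl gene for all samples in 1 table. The strand setting of the counting is not given in the sources used here, so overlapping and antisense genes could not be separated.

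The filter kept each gene whose highest count over the samples exceeded 10 (17779 of 53715). Counts were fitted across all 3 groups with edgeR 4.0.16 (R 4.3.3), with TMM scaling, the quasi-likelihood test and Benjamini-Hochberg adjustment over all tested genes. SE is the absolute log2 fold change divided by the square root of F. For a call, the adjusted p had to be below 0.01 and the log2 fold change beyond 1 in size, which are the thresholds of the study. In counts simulated for Diff. hepatocytes against hepatoblasts (16761 genes), 1 of 50 genes changed 1.5-fold, 15 of 50 changed 2-fold, 49 of 50 changed 4-fold and 50 of 50 changed 8-fold were called, with 1 false call. Only well-read genes were changed there, and all other genes had the same mean in every group. The simulation therefore does not cover changes of genes with few reads, such as Fbp2 and Eno2, or scaling where many genes differ. Libraries held 19581551 to 25216977 counts.

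Isozyme shares used counts per kb of the exon union of each gene (GENCODE M21, GRCm38) within each library and two-sided exact permutation tests over the 70 assignments of 4 against 4 libraries, which cannot give a p below 0.0286. Promoter letters were taken from RefSeq. Shared transcript sequences were counted over all stretches of 75 bases. The 41 listed genes are all named, and genes of other lists were named by the largest changes among those called whose mean CPM in the 8 libraries compared reached 10, at most 2 for each list, direction and comparison. The listed genes, the other lists and the tests were chosen with earlier results of these data known. The labels name the samples biological replicates; hepatoblasts came from pooled livers. Deviations from the group means correlated at -0.06 to 0.32 between hepatoblasts and Diff. hepatocytes of the same replicate number. With mature hepatocytes, the values were -0.03 to 0.09 for hepatoblasts and -0.08 to 0.09 for Diff. hepatocytes. The sample titles give replicate numbers and name no pairs. The main fit used no pairs, and the correlations do not settle whether hepatoblasts and Diff. hepatocytes were paired. Alternatives were DESeq2 1.42.0, other scalings and filters, a replicate block, and leaving out each library. No columns of the table were left out.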

Additional observations from a re-analysis of the deposited data

Results flagged for a closer look

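For each level and share, the highest and the lowest of the 4 libraries of a group were compared with the nearest other library. A library counted as far from the others when that distance, as part of the range of the group, passed Dixon's critical value at 95%, which chance gives in about 1 in 20 groups. Of 195 groups examined (levels and shares), 22 had such a library, where about 9.75 would be so by chance, and 12 of the 22 were hepatoblast replicate 1.

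In hepatoblast replicate 1, Hk1 stood at 116.6 CPM, Hk3 at 9.449, Pfkm at 41.57, Pfkp at 8.642, Pklr at 240.0 and Pkm at 127.5, each above the other hepatoblast libraries. In the same library the Hk1 share was 57.85% and the Hk2 share 31.3%, the Pfkp share 1.648%, the Pfkfb2 share 11.34%, the Slc2a1 share 54.38% and the Slc2a2 share 39.36%. Its sums of erythroid (2726 CPM) and neutrophil markers (411 CPM) were the highest of the group, and their part in these values was not tested.

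In Diff. hepatocytes, replicate 1 stood above its group for Hk1 (25.55 CPM) and Pkm (188.6 CPM), replicate 2 for Pfkp (199.6 CPM) and replicate 4 for Pklr (125.5 CPM). In mature hepatocytes, replicate 3 was high for Gapdh (514.9 CPM) and low for G6pc3 (4.319 CPM), for the Eno3 share (4.007%) and for the Pck1 share (99.95%). Replicate 4 was low for the Hk3 share (50.23%) and the G6pc share (99.22%).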

How the results depend on the processing

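No gene called in the report changed direction under any alternative run. The call rule and the scaling both moved the counts. With library totals, 8 listed genes were called lower in Diff. hepatocytes than in hepatoblasts and 20 lower in mature hepatocytes than in hepatoblasts, and 20 were called higher in Diff. than in mature hepatocytes, also 20 without the 50 most abundant genes. When an adjusted p under 0.05 sufficed whatever the fold change, 29 genes passed between Diff. hepatocytes and hepatoblasts (11 lower), and 32 between Diff. and mature hepatocytes (22 higher). With the threshold inside the test (glmTreat), 2 were lower in Diff. hepatocytes than in hepatoblasts. Leaving out libraries gave 15 to 19 calls between Diff. hepatocytes and hepatoblasts (11 to 12 higher, 4 to 7 lower). Between mature hepatocytes and hepatoblasts it gave 25 to 26 (13 higher, 12 to 13 lower). Between Diff. and mature hepatocytes it gave 19 to 21 (10 to 12 higher, 8 to 9 lower). Comparisons of shares without overlap numbered 50 to 60, a count that leaving out libraries can only keep or raise. The fit without both first replicates was added after seeing the data, as was the length of the principal transcript for the shares. With the replicate number as a block the counts were 17, 26 and 21; 2, 2 and 0 of 4 libraries correlated best with their own number.

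Differences that were not called changed sign as follows. Diff. hepatocytes against hepatoblasts, with library totals: Pgk1 -0.19, Eno1 -0.16, Eno2 -0.29, Eno3 -0.29 and Slc2a2 -0.20. Without the 50 most abundant genes, Eno2 was at -0.082 and Eno3 at -0.085, without a filter at -0.0044 and -0.0062, and with the replicate block Eno2 was at -0.010. Mature hepatocytes against hepatoblasts, with library totals and without the 50 most abundant genes, gave -0.45 and -0.25 for Pfkm, -0.50 and -0.33 for Aldoc, -0.76 and -0.58 for Gapdh, -0.80 and -0.62 for Eno1, and -0.32 and -0.14 for Mpc2. With at least 10 counts in every sample Gapdh was at -0.038 and Eno1 at -0.084, and without a filter Eno1 was at -0.0013. For Diff. against mature hepatocytes the same scalings gave 0.23 and 0.26 for Fbp2, 0.084 and 0.13 for Pfkfb3, 0.19 and 0.21 for Pcx, and 0.39 and 0.42 for Mpc1. Leaving out libraries gave, for Diff. hepatocytes against hepatoblasts, -1.54 to 0.12 for Hk1, -0.0083 to 0.18 for Pgk1, -0.26 to 0.14 for Eno2, -0.29 to 0.12 for Eno3, -0.047 to 0.98 for Pkm and -0.026 to 0.21 for Slc2a2. For mature hepatocytes against hepatoblasts it gave -0.72 to 0.45 for Hk3, -0.10 to 0.014 for Gpi1 and -0.028 to 0.11 for Eno1, and for Diff. against mature hepatocytes -0.016 to 0.32 for Slc37a4. Depth limits Fbp2, Pfkfb4, Eno2, Pgam2 and Slc2a3, which had fewer than 10 reads in some libraries. Apart from the settings named in the report, the cause of these changes was not tested.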
